A study of Rattus norvegicus with 6 samples.

Results

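The miRNAs described are rno-miR-146a-5p, rno-miR-146b-5p and rno-miR-155-5p, which are known to be induced by inflammatory signals. They were taken by name from an Agilent Rat miRNA array and make up 3 of its 758 miRNAs. At 4 weeks after myocardial infarction (MI), the signals of miR-155-5p and miR-146b-5p in rat myocardium were 2.10-fold and 1.68-fold those of the control group. With the same probes summed on every array, the fold of miR-155-5p was 1.93. The signal of miR-146a-5p did not pass the test and had a log2 fold change of -0.42. The pair miR-146a-5p and miR-146b-5p share a seed, so the difference between their changes is described in some detail.

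Male Sprague–Dawley rats had the left anterior descending coronary artery ligated (model group) or were threaded without ligation (sham-operated control group). The heart muscle was taken 4 weeks later, and total RNA of 3 rats per group was labelled with Cy3 and hybridised to 6 arrays of a single colour. The rats carried no genetic change, their age is not given in the sources used here, and the arrayed samples were drawn at random from larger groups. The study describes the sampled tissue as the infarct margin, whereas the labels say only myocardium, and the hearts of the control group held no infarct. On the arrays, 206 to 222 miRNAs were detected. The 6 arrays shared 1 slide and 1 scan time. The control arrays and model array 1 lay in its row 1, and model arrays 2 and 3 in row 2.

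A miRNA guides the silencing complex to messenger RNAs that pair with its seed, bases 2 to 8 from the 5′ end, and lowers their translation or stability. Transcription of the genes of miR-146a and miR-155 is switched on by NF-κB after Toll-like receptor or cytokine signals. The miR-146 miRNAs repress the adaptors IRAK1 and TRAF6 and so damp the same signal. In contrast, miR-155 represses SOCS1 and SHIP1, which are brakes on cytokine signalling, and is known for promoting the activation of macrophages and lymphocytes. In the infarcted heart, leukocytes clear dead muscle before fibroblasts lay down a scar.

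The mature sequences below are from RefSeq on the GRCr8 assembly, where 3 of the 3 miRNAs were matched by name. They are printed because the shared seed, in capitals, separates them into a pair and a single miRNA.
rno-miR-146a-5p: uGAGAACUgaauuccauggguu
rno-miR-146b-5p: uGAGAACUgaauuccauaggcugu
rno-miR-155-5p: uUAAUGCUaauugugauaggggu

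Counted from 1 at the 5′ end, miR-146a-5p and miR-146b-5p have the same first 17 bases. They differ by G18A and U21C, with the base of miR-146a-5p given first, and miR-146b-5p has 2 more bases at its 3′ end (24 against 22). Among the 693 mature rat sequences of the RefSeq table, no other miRNA has the seed GAGAACU. The seed of miR-155-5p, UAAUGCU, was found in no other mature sequence, and the longest run of bases that miR-155-5p shares with miR-146a-5p is 4. With miR-146b-5p, miR-155-5p shares the longer run AUAGG, which lies outside the seed.

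The mature miR-146a-5p lies at chr10:28350053-28350074 on the minus strand, within the span of the long noncoding RNA gene LOC134480673. That of miR-146b-5p lies at chr1:255144874-255144897 on the plus strand, within the span of the protein-coding gene C1h10orf95. That of miR-155-5p lies at chr11:37261117-37261139 on the plus strand, within the span of its host gene Mir155hg, a long noncoding RNA. Exons of these genes were not used here, so the place within an exon or intron is not given.

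Each miRNA is read by 2 probes of 8 spots each. The scanner's software gives each probe an error, and detection asks for a signal above 3 such errors. The signal of a miRNA is the sum of its detected probes in arbitrary units of intensity. Probes bind with unequal strength, so levels of different miRNAs were not ranked. Where signals were summed over a list, its brightest members weigh most. For tests, signals were scaled to the upper quartile (75th percentile) of the array over 198 miRNAs that were detected throughout, which lay between 145 and 203, and log2 was taken. In the limma fit of 214 miRNAs, 22.9% passed an adjusted p of 0.05, with 10.3% higher and 12.6% lower in the model group. The 214 include miRNAs detected throughout only a single group. Fitted alone, the 198 miRNAs gave 17 higher and 27 lower. Over the 198 miRNAs, the median change was -0.15 on the log2 scale.

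The signals of miR-155-5p were 3.38, 5.69 and 3.04 on control arrays 1, 2 and 3, and 9.07, 9.95 and 9.87 on model arrays 1, 2 and 3. The lowest model signal exceeded the highest control signal. The signal of model array 3 summed 2 probes and that of every other array held 1, as described below. On the scaled log2 scale, the mean level was -5.35 ± 0.27 for control arrays and -4.28 ± 0.20 for model arrays (SD, n = 3). The log2 fold change was 1.07 (standard error 0.17, 95% interval 0.64 to 1.49, limma adjusted p = 0.0127), the 11th highest of 214. Relative to the median shift of the 198 miRNAs it was 1.22. The study also selected miR-155-5p from these arrays, so this test is not independent evidence of its direction.

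The signals of miR-146b-5p were 10.4, 17.4 and 10.5 on control arrays 1, 2 and 3, and 24.7, 29.8 and 20.1 on model arrays 1, 2 and 3. The groups did not overlap, and the brightest control array was control array 2. The scaled log2 level averaged -3.68 ± 0.21 in controls and -2.93 ± 0.21 in the model group (SD, n = 3). The log2 fold change was 0.75 (standard error 0.15, 95% interval 0.37 to 1.12, limma adjusted p = 0.0217), or 0.89 relative to the median shift, and ranked 16th of 214. The call was lost without control array 1, control array 3 or model array 2, with limma adjusted p of 0.0774, 0.0675 and 0.0510, while the call of miR-155-5p was lost without control array 1 (0.0636). Both calls were also lost with normexp background correction, at log2 fold changes of 0.10 and 0.0071, and without the detection filter, and that of miR-146b-5p with the methods' t-test.

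The signals of miR-146a-5p were 117, 203 and 102 on control arrays 1, 2 and 3, and 103, 147 and 111 on model arrays 1, 2 and 3. The groups overlapped, and control array 2 again was the brightest. The scaled log2 level averaged -0.24 ± 0.32 in controls and -0.66 ± 0.30 in the model group (SD, n = 3). The log2 fold change of -0.42 (standard error 0.22, 95% interval -0.95 to 0.12, limma adjusted p = 0.204) ranked 173rd of 214 and was -0.27 relative to the median shift. The upper end of the interval corresponds to a 1.09-fold higher level in the model group and the lower end to 0.517-fold. With the 75th percentile of all 758 miRNAs as the scale, the log2 fold change of -0.54 passed the threshold (limma adjusted p = 0.0495), as did -0.26 with normexp background correction (0.0376). Only 27.2% to 29.3% of the 758 were detected on an array, so that percentile lies among the faint detected signals.

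**Figure D1:**
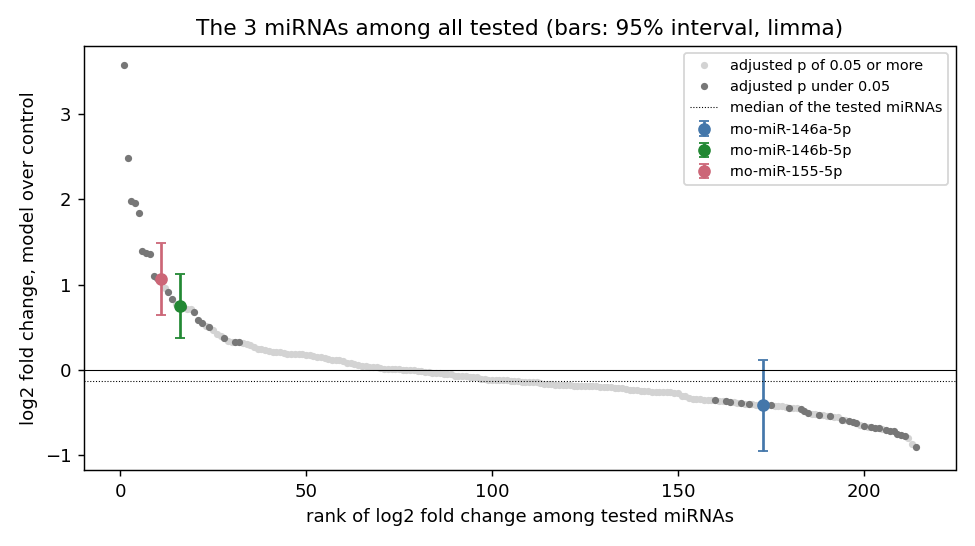
Log2 fold change of model over control (vertical axis) against its rank among the 214 tested miRNAs (horizontal axis), with dark points for an adjusted p under 0.05, bars for the 95% interval of the 3 named miRNAs, and a dotted line at the median. MiR-155-5p and miR-146b-5p stand at ranks 11 and 16 with intervals above 0, and miR-146a-5p at rank 173 with an interval that spans 0.

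The rank plot places the 2 higher miRNAs among the 22 called higher in the model group. Non-overlap of the groups was common, since it was found for 47.2% of the 214 miRNAs, and for 2 of the 3 described here. The tissue was measured whole, so a change in the number of cells of a type and a change in RNA per cell cannot be told apart.

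In row 1 of the slide, which held the control arrays and model array 1, the log2 difference between model array 1 and the control arrays was 0.87 for miR-155-5p (limma adjusted p = 0.0731 with the row as a block), 0.64 for miR-146b-5p (0.133) and -0.74 for miR-146a-5p (0.138). Row 2 held model arrays only and gives no value. The directions within row 1 were those of the whole fit, from a single model array, which the fit assumes to vary like the others.

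The 2 probes of miR-146a-5p, and likewise of miR-146b-5p, gave close values. For miR-146b-5p, the log2 differences between the groups were 0.75 for probe A_26_P00002469 and 0.74 for probe A_26_P00002601, and both probes were detected on 6 of 6 arrays. For miR-146a-5p they were -0.42 for probe A_26_P00001390 and -0.41 for probe A_26_P00002583, again detected on 6 of 6 arrays. For miR-155-5p the log2 difference was 0.94 for probe A_26_P00003525, detected on 6 of 6 arrays. Probe A_26_P00003524 was detected on 1 of 6, so its difference of 0.98 comes from signals mostly under the detection limit. The groups did not overlap for the probes of miR-146b-5p and for probe A_26_P00003525 (two-sided exact permutation p = 0.10 each, the smallest that 3 arrays against 3 can give, and 0.15 adjusted over 6 probes). For both probes of miR-146a-5p the exact permutation p was 0.20.

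The probes of miR-155-5p lay close to the detection limit. Probe A_26_P00003525 had signals of 3.38, 5.69 and 3.04 on the control arrays, which were 3.38, 5.09 and 3.33 times its error, and of 9.07, 9.95 and 7.53 on the model arrays, 7.12, 7.47 and 7.22 times its error. It was detected on every array. Probe A_26_P00003524 had signals of 0.942, 1.25 and 1.05 in the control group against 2.80, 2.38 and 2.34 in the model group, and only on model array 3 was it over the limit, at 3.06 times its error. On model array 1 it reached 2.97 times its error and was left out of the sum.

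The sum of model array 3 therefore held 2 probes and that of every other array 1. With the same probes on every array (an alternative added with the values in view), the log2 fold change of miR-155-5p was 0.95 and the fold 1.93 (limma adjusted p = 0.0046), and with all probes summed it was 0.94 and 1.92 (0.0034). The fold thus fell from above to below the study's limit of 2, while its adjusted p stayed under 0.05. For miR-146a-5p and miR-146b-5p both probes entered every sum.

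**Figure D2:**
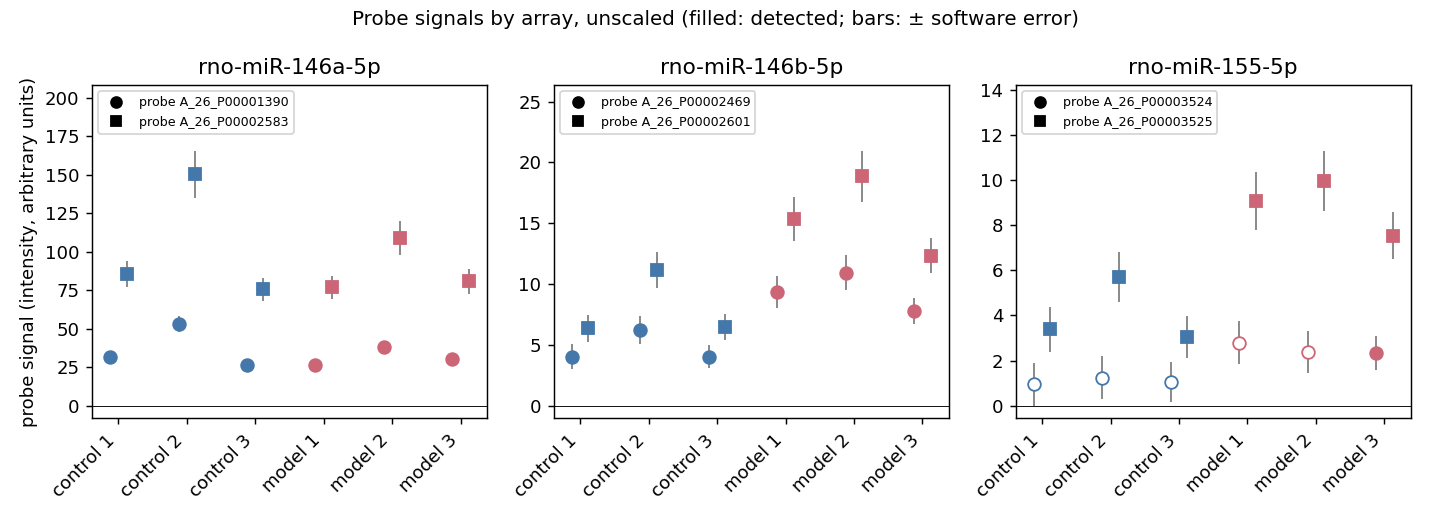
Unscaled signal of each probe in arbitrary units of intensity (vertical axis) on the 6 arrays (horizontal axis), in blue for control and red for model arrays, with bars for the software's error, filled marks for detected and open marks for undetected probes, and a separate scale in each panel. Both probes of miR-146b-5p and of miR-155-5p are higher on every model array, those of miR-146a-5p overlap, and probe A_26_P00003524 is filled only on model array 3.

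As the plot of probe signals shows, the error bars of miR-146b-5p and miR-155-5p take a larger part of the signal than those of miR-146a-5p. The error of the summed signal was 7.84% to 7.97% of the signal for miR-146a-5p, 8.45% to 14.8% for miR-146b-5p and 13.1% to 30.1% for miR-155-5p. The coefficient of variation between the 8 spots of a probe was at most 7.05% for miR-146a-5p, 34.1% for miR-146b-5p and 87.7% for miR-155-5p. The last value is of probe A_26_P00003524, detected on 1 of 6 arrays. For probe A_26_P00003525 of miR-155-5p it was at most 24.4%. No spot was saturated.

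The total signal that the software wrote for miR-155-5p did not hold this miRNA alone. It was 220, 291, 208, 286, 70.3 and 9.87 on control arrays 1 to 3 and model arrays 1 to 3, against 3.38 to 9.95 from its own detected probes. On 5 arrays the excess equalled the total written for miR-152-3p, within a relative tolerance of 0.0001, and made up 85.9% to 98.5% of the value. That written total was itself above the signal of miR-152-3p's own detected probes on 4 of these arrays, at 216 against 23.8 on control array 1, 285 against 30.2 on control array 2, 205 against 19.7 on control array 3 and 277 against 41.5 on model array 1. On model array 2 both were 60.4. Only on model array 3, where both probes were detected, was the total that of miR-155-5p. Read as deposited, its log2 fold change was -1.92 (limma adjusted p = 0.307), the opposite sign. The totals of miR-146a-5p and miR-146b-5p equalled the sums of their own probes on 6 of 6 arrays.

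In the authors' normalized log2 values, miR-155-5p stood at 2.03, 2.41 and 1.97 in the control group against 3.16, 3.13 and 3.45 in the model group, and these values followed its own probes. The log2 fold changes in those values were 1.11 for miR-155-5p (limma adjusted p = 0.0090), 0.92 for miR-146b-5p (0.0192) and -0.51 for miR-146a-5p (0.132).

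Whether the miRNAs changed unequally was examined within each array, where a scale factor of the array cancels. The log2 signal of miR-146b-5p minus that of miR-146a-5p was -3.49, -3.55 and -3.27 on control arrays 1, 2 and 3, and -2.06, -2.30 and -2.47 on model arrays 1, 2 and 3. The groups did not overlap and their means lay 1.16 apart, so that miR-146b-5p stood 2.24-fold higher in the model group relative to its seed partner (two-sided exact permutation p = 0.10, the smallest possible, and 0.10 adjusted over 3 pairs). With normexp background correction the gap shrank to 0.37. Non-overlap of the groups held for all 3 pairs, and its share over other pairs of miRNAs was not computed. Whether a probe for one of these close sequences also binds the other was not tested.

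The difference of miR-155-5p minus miR-146a-5p was -5.11 ± 0.05 in controls and -3.63 ± 0.22 in the model group (SD, n = 3), means that lay 1.48 apart with an exact permutation p of 0.10. With normexp it was 0.27 with an exact permutation p of 0.30. For miR-155-5p minus miR-146b-5p the means were -1.67 ± 0.10 and -1.35 ± 0.29, which lay 0.32 apart (exact permutation p = 0.10). That last gap rested largely on model array 3, at -1.03 against -1.45 and -1.58 on model arrays 1 and 2. It was 0.16 without model array 3, and 0.19 with the same probes on every array.

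**Figure D3:**
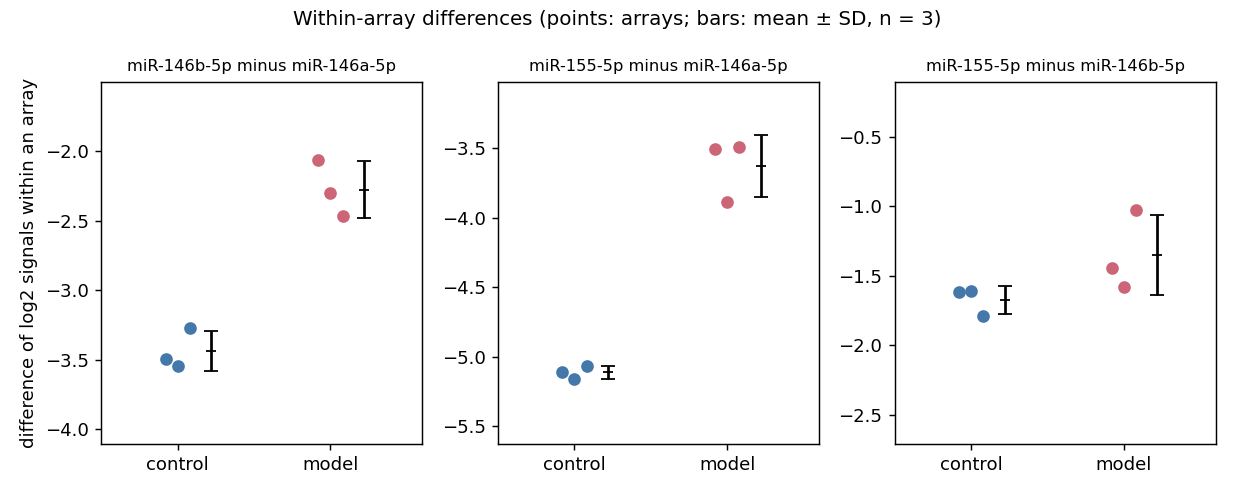
Difference of the log2 signals of 2 miRNAs within each array (vertical axis, each panel spanning the same range) for control and model arrays, with points for arrays and bars for the mean ± SD of 3. The model arrays lie 1.16 and 1.48 above the control arrays in the panels that set miR-146b-5p and miR-155-5p against miR-146a-5p, and 0.32 above in the panel of miR-155-5p against miR-146b-5p.

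The plot of within-array differences shows a wide gap between the groups only in the comparisons against miR-146a-5p. An exact test of 3 arrays against 3 cannot pass 0.05, whatever the gap.

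Each hairpin also yields a miRNA from its other arm, and these are measured by probes of their own. The hairpins are printed here with both mature arms in capitals, the 5′ arm first, because the arms can be measured apart.
rno-miR-146a hairpin: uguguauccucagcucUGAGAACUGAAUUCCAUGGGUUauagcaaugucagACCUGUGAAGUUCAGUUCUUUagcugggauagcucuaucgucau
rno-miR-146b hairpin: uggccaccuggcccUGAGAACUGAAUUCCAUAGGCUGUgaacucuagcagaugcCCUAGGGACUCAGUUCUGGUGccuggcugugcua
rno-miR-155 hairpin: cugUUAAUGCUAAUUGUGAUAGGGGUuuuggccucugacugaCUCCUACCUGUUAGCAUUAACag

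The opposite arms miR-146a-3p, miR-146b-3p and miR-155-3p were detected by 0 of 36 probe and array values. Their signals ran from -1.06 to 0.713 and were at most 0.754 times the error, below the limit of 3, in both groups. Their change between the groups was therefore not measurable on these arrays.

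Other miRNAs tied to inflammatory signalling were described from a list of 11. Of these, 7 were detected on every array of both groups, and 3 of the 7 rose, 0 fell and 4 did not pass, beside 10.3% higher and 12.6% lower over all 214 tested. Among the 198 miRNAs detected on every array, fitted alone, 17 were higher and 27 lower. The median log2 fold change of the 7 was 0.15, against -0.14 over the 214. MiR-132-3p was detected in the model group only, and miR-9a-5p, miR-147 and miR-187-3p were not detected on any array.

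Of the members measured in both groups, the largest change was that of miR-21-5p, which is abundant in stressed and fibrotic heart. Its signals were 289, 384 and 243 in the control group against 743, 983 and 603 in the model group, a log2 fold change of 1.10 (standard error 0.17, limma adjusted p = 0.0104). MiR-132-3p, a miRNA induced by CREB, was not detected on any control array and had signals of 4.12, 4.44 and 3.22 on the model arrays. After scaling, its mean model level was at least 1.80-fold that of the control arrays. For this bound, each control array was taken at its lowest detected signal, or at the summed probes of miR-132-3p if larger. MiR-132-3p entered the fit only through the model group and its control values there all stood at the floor, so no p-value is given for it. In the same direction, miR-125b-5p changed by 0.55 (0.0217) and let-7e-5p, of the same cluster as miR-125a-5p, by 0.32 (0.0281). MiR-21-5p and miR-132-3p were also selected by the study from these arrays.

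The members that did not pass were miR-212-3p at -0.21, miR-301a-3p at 0.06, miR-125a-5p at 0.08 and miR-223-3p at 0.15. MiR-212-3p, which shares a cluster with miR-132-3p, had signals of 76.7, 48.3 and 24.7 on model arrays 1, 2 and 3 against 39.7, 46.8 and 46.1 on the control arrays, and the groups overlapped.

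Of 7 miRNAs that mark leukocytes, miR-142-5p and miR-511-5p were not detected on any array. The other 5 gave 1 higher, 1 lower and 3 that did not pass, with a median log2 fold change of -0.07, beside 10.3% higher, 12.6% lower and a median of -0.14 over all 214. With 5 members, these counts lie near the shares over all miRNAs. The fit of only the 198 miRNAs detected on every array gave 17 higher and 27 lower. MiR-511-3p, which lies in an intron of the macrophage mannose receptor gene, rose from 4.54, 7.0 and 3.67 on the control arrays to 10.3, 12.7 and 8.22 on the model arrays, a log2 fold change of 0.83 (limma adjusted p = 0.0281). MiR-150-5p, a miRNA of mature lymphocytes, fell by 0.60 on the log2 scale (0.0178).

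MiR-142-3p, found in all blood cell lineages, had a log2 fold change of -0.07 with a 95% interval of -0.71 to 0.56, and miR-342-3p of -0.26. MiR-223-3p, a miRNA of neutrophils and other myeloid cells, had signals of 42.0, 58.6 and 42.4 in the control group against 56.9, 71.7 and 57.5 in the model group. Its interval ran from -0.15 to 0.45. The summed scaled level of the leukocyte list was 2.54 to 2.86 on the control arrays and 1.87 to 2.22 on the model arrays. From 51.9% to 67.4% of each sum was miR-150-5p, and without it the sums were 0.840 to 0.978 and 0.779 to 0.987, which overlapped.

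**Figure D4:**
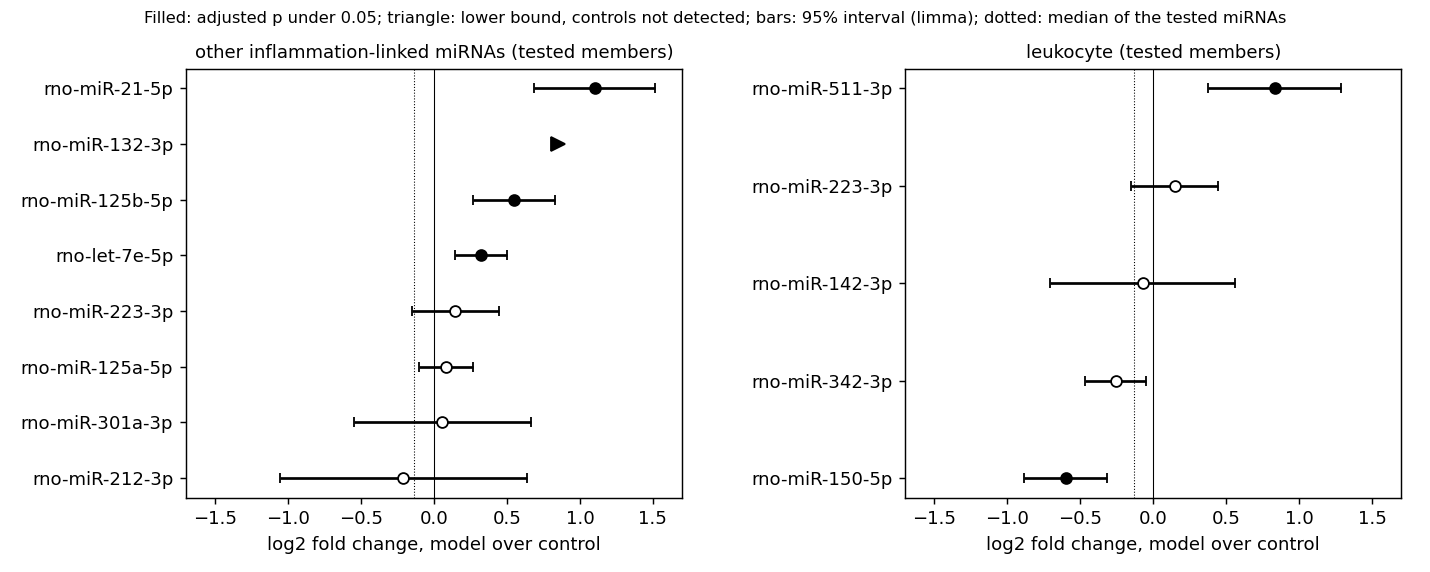
Log2 fold change of model over control (horizontal axis) for the tested members of the inflammation-linked list (left) and the leukocyte list (right), with bars for the 95% interval, filled marks for an adjusted p under 0.05, a triangle for a lower bound, and a dotted line at the median of all tested miRNAs. In the left panel miR-21-5p, miR-125b-5p and let-7e-5p are filled and lie above 0, the triangle of miR-132-3p stands at its bound, and in the right panel miR-511-3p lies above 0 and miR-150-5p below.

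As the plot of the lists shows, the leukocyte miRNAs spread to both sides of 0. Lists for other cell types also held miRNAs that passed the test, to be read beside the 10.3% higher and 12.6% lower over all 214. The fibroblast list gave 4 higher of 4. Its summed scaled level was 2.44 to 3.06 on the control arrays and 7.26 to 10.2 on the model arrays. The study had also selected these 4, miR-199a-5p, miR-199a-3p, miR-214-3p and miR-140-5p, from these arrays. Their count is therefore not independent evidence of a rise. The cardiomyocyte list gave 3 lower of 5 tested, with 114 to 138 against 60.9 to 85.1. Most of its sum was miR-1-3p and miR-133b-3p, with signals of 6929 and 9222 on control array 1, against 338 for miR-133a-3p. MiR-208a-3p was detected on 3 control and 2 model arrays, so it was tested only through the control group, and it did not pass. MiR-208b-3p was not detected on any array. Both endothelial miRNAs were lower, with 8.16 to 9.17 against 5.98 to 6.66. That sum was mostly miR-126a-3p, at 1279 on control array 1 against 32.1 for miR-126a-5p. Of the smooth muscle list, 0 of 2 passed, with 5.04 to 6.72 against 4.74 to 5.46, and the red blood cell list gave 1 lower of 2 tested, with 1.79 to 2.10 against 1.13 to 1.43 and miR-144-3p not detected on any array. The part of these shifts in the changes of miR-155-5p, miR-146b-5p and miR-146a-5p was not tested.

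The miRNAs with the most similar course over the 6 arrays were found as the smallest root mean square difference of centred log2 levels among 197 candidates, and no test applies to them. Centring ran over all 6 arrays, so miRNAs with a like change between the groups also lie near each other. The nearest to miR-146b-5p were miR-511-3p at 0.11, miR-497-5p at 0.14 and miR-195-5p at 0.15, against a median of 0.52 over the candidates. The nearest to miR-155-5p were miR-221-3p at 0.18, miR-511-3p at 0.23 and miR-21-5p at 0.23. MiR-146b-5p was 5th in nearness to miR-155-5p, at 0.24, against a median of 0.66 over the candidates.

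The nearest to miR-146a-5p were miR-1896 at 0.19, miR-128-3p at 0.20 and miR-26b-5p at 0.20. Its seed partner miR-146b-5p stood 181st of 197 at 0.60, and miR-155-5p 188th at 0.75, against a median of 0.32 over the candidates.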

How the data were processed

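Total RNA of 3 control and 3 model rats was measured on Agilent Rat miRNA arrays, and samples were grouped by their labels. The authors deposited intensity values from Agilent Feature Extraction 10.7.1.1, background-subtracted and not scaled between arrays, for 758 miRNAs and 1806 probes. The authors also deposited normalized log2 values by a method not stated. Over the 198 miRNAs detected on all arrays, these had slopes of 0.981 to 1.03 on the log2 scanner sums, so scale and direction are known, and their column medians were 4.80 on each array (-3.22 to -3.31 over all miRNAs). How they were centred stays unknown.

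The total signal was rebuilt as the sum of probes over 3 times their error. The detection flag equalled this rule in 4548 of 4548 cases. Signals were divided by each array's 75th percentile over those 198 miRNAs, floored at -6.50 on the log2 scale, and the 214 miRNAs detected on every array of a group were fitted with limma 3.58.1 in R 4.3.3, without covariates, with Benjamini-Hochberg adjustment and two-sided tests. Differences between miRNAs and single probes were compared by exact permutation tests. The fit was also run on simulated data, with an equal spread for every miRNA and larger rises than those of the members. That run did not cover smaller changes near the detection limit. Tables and figures used Python 3.11.15, matplotlib 3.10.9, numpy 2.4.6 and pandas 2.3.3. The 3 arrays per group limit the precision.

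The members, lists and tests were chosen with earlier results of these data known. Named miRNAs are the members, the lists, the 3 nearest courses to each member, and the miRNA whose written total was held in another's. The alternatives changed the scaling, background, summing of probes, floor, filter, test, blocks and values, or left out an array, and 1, the same probes on every array, was added after the data were seen. The study's qRT-PCR, staining and cell culture were not analysed here.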

Additional observations from a re-analysis of the deposited data

How the results depend on the processing

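Under 23 alternatives, the direction of miR-146a-5p and miR-146b-5p was kept in 23 and that of miR-155-5p in 22. The exception was the totals as deposited, with a log2 fold change of -1.92 for miR-155-5p, and with them the changes of miR-155-5p minus miR-146a-5p and minus miR-146b-5p also turned, to -1.85 and -3.01. On 5 arrays the total of miR-155-5p held the total written for miR-152-3p, which was above that miRNA's own signal on 4 of them. With normexp background correction, whose offset of 50 is above all signals of miR-146b-5p and miR-155-5p, the log2 fold changes were 0.10 for miR-146b-5p, 0.0071 for miR-155-5p and -0.26 for miR-146a-5p (limma adjusted p = 0.351, 0.939 and 0.0376), and miR-155-5p minus miR-146b-5p turned to -0.095. With it miR-146a-5p minus miR-146b-5p was -0.37 and miR-155-5p minus miR-146a-5p was 0.27. Scaled to the 75th percentile over all miRNAs, which lies among the faint detected signals, miR-146a-5p passed at -0.54. Without the detection filter, the calls of miR-146b-5p at 0.75 and miR-155-5p at 1.07 were lost (limma adjusted p = 0.204 and 0.143). More miRNAs were then tested, 758, and the unadjusted p also rose, from 0.0031 to 0.011 and from 0.00091 to 0.0049. Undetected miRNAs entered that fit at the floor value, and 9 of the 758 passed. The methods' t-test gave 0.75 with a Benjamini-Hochberg adjusted p of 0.0613 for miR-146b-5p and 0.0434 for miR-155-5p, both under 0.05 before adjustment. Blocking on the slide row gave 0.64 and 0.87 for miR-146b-5p and miR-155-5p, with model array 1 alone against the control arrays, and neither passed. Leaving out 1 array at a time gave 0.63 to 0.86 for miR-146b-5p, 0.95 to 1.22 for miR-155-5p and -0.55 to -0.24 for miR-146a-5p.

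The number of miRNAs past the threshold, 49, became 19 without scaling, 9 without the detection filter, 26 with the methods' t-test, 29 with the row as a block, and 14 to 40 when 1 array was left out, with 14 without control array 1 and 28 without control array 3. The cause was not tested. The split of 22 higher and 27 lower was 19 and 47 under scaling to all miRNAs, 30 and 16 with median centring, 23 and 16 with quantile normalization, 19 and 0 without scaling, 23 and 14 in the authors' values, and 35 and 1 in the totals as deposited. Over the 198 miRNAs, the median change (log2) ran from -0.27 under the percentile of all miRNAs to 0.09 without scaling and 0.15 in the totals as deposited. Equal replicate numbers were not treated as pairs in the main fit. Deviations of equal numbers correlated at -0.262, 0.032 and 0.236 across 198 miRNAs, and 2 of 6 samples correlated best with their own number. With 3 arrays per group, these values cannot show whether equal numbers shared any handling. With the replicate block, 16 miRNAs passed, and miR-155-5p kept its 1.07 with a limma adjusted p of 0.0501.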
